A study of Mus musculus with 12 samples.

Results

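The 32 genes described here are 22 that carry glucose through glycolysis to lactate and 10 that belong to the transcriptional response to low oxygen, read in paused mouse embryonic stem cells with and without a guide RNA against the Mycn transcript. They were chosen by gene name, with earlier results of these data known, and are 32 of the 24421 genes in the deposited count table. All 32 passed the filter on low counts that left 14497 genes for testing. The cells were E14 embryonic stem cells, of the genotype labelled WT(dCas_Alkbh5), kept on gelatin in serum with LIF. Alkbh5 is an eraser of m6A, a methyl mark on RNA, and dCas denotes a Cas protein that binds without cutting. All 12 libraries came from cells given 1 µg of a lentiviral sgRNA plasmid with a blasticidin resistance gene, selected for 3 days in 8 µg/mL blasticidin and kept for a further 5 days with 200 nM of INK128, an mTOR inhibitor that pauses the growth of embryonic stem cells. The groups differed in the guide alone as labelled, with 4 libraries for a non-targeting guide (NT), 4 for Mycn-gRNA2 and 4 for Mycn-gRNA3. Each RNA sample came from 200000 cells and received ERCC Mix1, a set of synthetic RNAs in known amounts, before polyA selection. Nothing in the labels tells whether replicates were grown apart, so the p-values rest on a spread among these libraries that may be technical.

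Glycolysis splits glucose into pyruvate in the cytosol. Glucose enters through Slc2a transporters, hexokinase traps it by phosphorylation, phosphofructokinase commits it to the pathway, and later enzymes recover ATP, after which lactate dehydrogenase turns pyruvate into lactate and Slc16a3 exports it. Hypoxia-inducible factors (HIFs) are transcription factors whose alpha subunit is hydroxylated by Egln enzymes and destroyed when oxygen is present. When stable, they bind the short core ACGTG or GCGTG near many glycolytic genes and near regulators of mitochondria, blood vessels and collagen. MYC proteins, among them Mycn, bind the E-box CACGTG, which contains the HIF core on both strands, and are also known to act on glycolytic genes. Pluripotent stem cells are known for high glycolytic rates.

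Because members that move together may share letters near their start sites, promoter windows were read from the RefSeq promoter table on build GRCm38.p6. Of the 32 members, 29 had a window, while Slc2a3, Bnip3l and Ndufa4l2 had none. The cores ACGTG and GCGTG (reverse CACGT and CACGC) were searched on both strands in the 250 bases before each start. At least 1 core lay in a window of 26 of the 29 members (89.7%). Among all 27025 genes with a window it was 41.5%, and among the 10842 of them that were tested 60.5%. A gene counted if any of its windows held a core, and the furthest-upstream windows of Hk1, Aldoa, Pkm and Vegfa held none. Since HIFs are known to bind near many glycolytic and hypoxia-response genes, the choice of members itself favours a high share. The share was 11 of 12 (91.7%) among members called higher with the guides and 15 of 17 (88.2%) among the other members, so the presence of a core did not separate them. CACGTG lay in a window of 5 of 29 members (17.2%), namely Pfkm, Pfkfb3, Ldha, Bnip3 and Hif1a, against 6.86% of all genes and 9.82% of tested genes. The windows of Gpi1, Tpi1 and Eno2 held no core, and Tpi1 was called higher all the same. Below are the 150 bases before the start, 5′ to 3′ on the gene's strand, for 5 of the called members with the largest rises, Bnip3 (chr7:138909507-138909656, minus), Slc16a3 (chr11:120948917-120949066, plus), Ldha (chr7:46845654-46845803, plus), Pgk1 (chrX:106186950-106187099, plus) and Pfkl (chr10:78009808-78009957, minus), followed by Hif1a (chr12:73907717-73907866, plus), a member that was not called. Capitals mark every core match, and CACGTG is an E-box. The Slc16a3 stretch precedes the RefSeq start, which lies inside the longer span that the count table gives for this gene (from 120948484). Aldoc, whose rise ranked among these, is left out because its stretch overlaps annotated exon sequence.
Bnip3: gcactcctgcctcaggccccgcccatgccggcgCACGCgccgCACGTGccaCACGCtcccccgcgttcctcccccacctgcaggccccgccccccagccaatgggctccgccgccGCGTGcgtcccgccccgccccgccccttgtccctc
Slc16a3: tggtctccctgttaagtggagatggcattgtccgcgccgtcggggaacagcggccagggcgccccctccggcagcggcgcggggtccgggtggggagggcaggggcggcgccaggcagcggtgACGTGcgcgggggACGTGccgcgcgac
Ldha: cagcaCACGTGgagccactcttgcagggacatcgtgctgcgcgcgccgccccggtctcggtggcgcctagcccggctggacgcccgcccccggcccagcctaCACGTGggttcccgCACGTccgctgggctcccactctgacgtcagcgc
Pgk1: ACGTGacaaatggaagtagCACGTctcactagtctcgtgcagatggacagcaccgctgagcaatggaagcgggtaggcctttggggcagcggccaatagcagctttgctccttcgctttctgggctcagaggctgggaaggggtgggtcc
Pfkl: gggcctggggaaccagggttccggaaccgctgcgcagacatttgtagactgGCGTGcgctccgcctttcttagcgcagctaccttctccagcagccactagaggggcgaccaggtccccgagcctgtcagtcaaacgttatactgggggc
Hif1a: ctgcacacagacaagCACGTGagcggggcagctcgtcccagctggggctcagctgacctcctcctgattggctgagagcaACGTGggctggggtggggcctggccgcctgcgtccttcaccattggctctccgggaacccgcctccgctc
Ldha carried 2 E-boxes, Bnip3 1 and Hif1a 1 in these stretches, while Slc16a3, Pgk1 and Pfkl had HIF cores without an E-box. A match describes letters only and says nothing of binding in these cells.

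Endogenous reads numbered 17248564 to 33819855 per library, and ERCC RNAs took 1.035% to 1.605% of all reads. Mycn itself was higher in all 8 guide libraries (205.2 to 291.8 CPM, which is reads per 1000000 after scaling by edgeR's TMM factors) than in the NT libraries (136.4 to 146.4 CPM), a rise of 0.86 (log2, edgeR adjusted p = 3.39e-06). The labelled cell type had its markers: the summed level of 10 embryonic stem cell genes was 5209 to 5730 CPM in NT, 4150 to 4863 CPM with Mycn-gRNA2 and 4924 to 5038 CPM with Mycn-gRNA3, with none at 0 and 3 called lower (Esrrb, Klf4 and Nanog). Other marker lists moved between the groups as well: the summed level of 10 primitive endoderm genes was 134.8 to 191.8 CPM in NT and 195.1 to 227 CPM over the guide libraries, with 7 of 10 called higher and Sox7 lower. The sum of 10 fibroblast genes was 2109 to 2546 CPM in NT and 1628 to 2143 CPM with the guides, and Postn and Lum were at 0 in NT. Of the 6 fibroblast genes tested, 3 were called higher (Col3a1, Col1a1 and Thy1) and 1 lower (Fn1), with a median log2 change of 0.72. The 4 Y-linked genes summed to at most 0.1806 CPM in NT and to at least 32.42 CPM in every guide library, and the genes of chromosomes 1 and 8 (Egln1 and Ankrd37 lie on 8) had median changes of −0.13 and −0.12 (log2) with the guides. With 1 control guide, differences that the NT cells had from the start and what the Mycn guides did cannot be told apart, and the part of these marker and chromosome differences in the results below was not tested. Replicate 1 of Mycn-gRNA2 stood apart from its group in 6.85% of tested genes, against 0.269% to 2.27% for each of the other libraries.

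Relative to the rest of the transcriptome, 10 of the 22 glycolytic genes were called higher with both Mycn guides together and 1, Slc2a3, was called lower (edgeR quasi-likelihood test, Benjamini-Hochberg adjusted p under 0.05 over all tested genes). Those higher were Hk1, Pfkl, Pfkm, Aldoc, Tpi1, Pgk1, Pkm, Ldha, Ldhb and Slc16a3. Over all genes the same rule called 14.9% higher and 13% lower. The median log2 fold change of the 22 was 0.27, with 16 above 0, beside −0.003 over all tested genes. Of the 10 HIF genes, Bnip3 and Egln3 were called higher and Bnip3l lower, a count of calls that is nearer the background, and their median was 0.23 with 8 above 0. Without replicate 1 of Mycn-gRNA2, 14 glycolytic and 5 HIF genes were called higher, while the calls over all genes went from 2156 to 3206 higher, and without NT replicate 3 or 4 the glycolytic count was 5. Full separation was rarer: all 8 guide libraries lay above every NT library for Hk1 and Bnip3 alone, 2 of 32 members against 8.56% of all tested genes, and below every NT library for Bnip3l alone, against 6.87%.

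**Figure D1:**
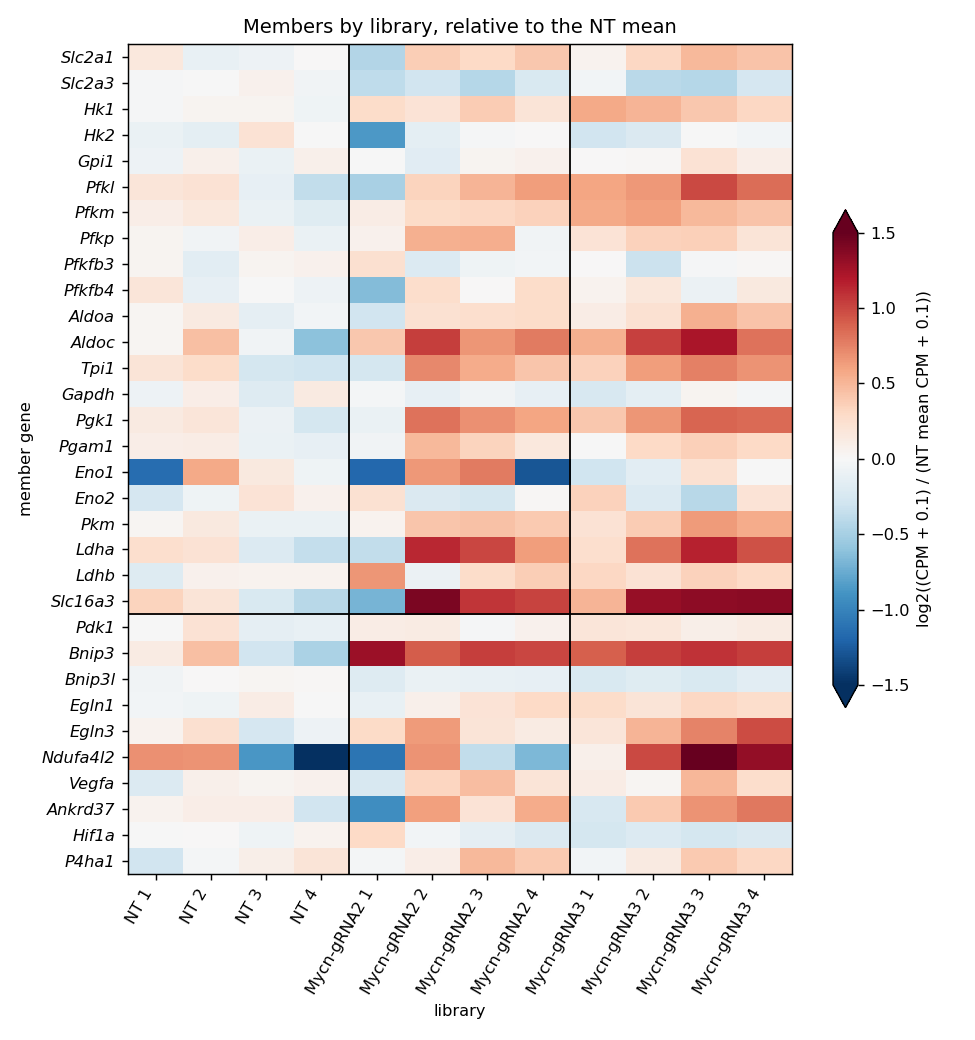
Colour map of the 32 members (rows, glycolytic above the line and HIF genes below) in the 12 libraries (columns), as log2 of CPM plus 0.1 over the NT mean plus 0.1, with values beyond the ends of the scale drawn in the end colours. Bnip3 is red in all 8 guide libraries, and Ldha, Slc16a3 and Pfkl are red in most of them but blue in Mycn-gRNA2 replicate 1.

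Glucose transporters moved apart. Slc2a3 (GLUT3, a high-affinity transporter abundant in embryos and neurons, mm10 chromosome 6, 122727809 to 122742745) fell by 0.30 in log2 relative to the transcriptome, with an SE of 0.071 (edgeR adjusted p = 0.00643). It stood at 1311, 1321, 1379 and 1279 CPM in NT replicates 1 to 4, at 1015, 1086, 984.5 and 1127 CPM with Mycn-gRNA2, and at 1285, 996.4, 980.2 and 1114 CPM with Mycn-gRNA3. Of the 8 guide libraries, 7 lay below every NT library, and Mycn-gRNA3 replicate 1 lay within the NT range. Per ERCC read the sign turned, with a change of 0.10 (SE 0.13, edgeR adjusted p = 0.522). Slc2a1 (GLUT1, the transporter most widely induced by HIF and MYC proteins) averaged 244 ± 20.2 CPM over the NT libraries (SD, n = 4), 280 ± 66.7 CPM for Mycn-gRNA2 and 306 ± 39.3 CPM for Mycn-gRNA3. Its change of 0.26 did not pass (edgeR adjusted p = 0.162), and 6 guide libraries lay above every NT library while Mycn-gRNA2 replicate 1, at 180.5 CPM, lay below all of them. Without that library it was 0.34 (edgeR adjusted p = 0.00227). Counted per kilobase of exon, Slc2a1 made up 22.1% ± 1.71 of the summed level of both transporters in NT (SD, n = 4), rather than 28.7% ± 4.84 under Mycn-gRNA2 and 30.3% ± 4.99 under Mycn-gRNA3, which is described without a test.

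Both hexokinases perform the first step, and Hk2 is the more abundant form here. Hk1 (the constitutive form bound to mitochondria, chromosome 10, 62268855 to 62379908) was at 24.15, 25.26, 25.13 and 23.49 CPM in NT, 29.7, 28.31, 32.07 and 28.02 CPM with Mycn-gRNA2 and 36.49, 35.06, 32.51 and 30.48 CPM with Mycn-gRNA3. Every guide library lay above every NT library. The rise was 0.36 (SE 0.0657, edgeR adjusted p = 0.00125), or 1.28-fold, and it stayed called with each of the 12 libraries left out in turn (0.34 to 0.39). Hk2, the form induced by HIF and MYC proteins in many tissues, was at 522 ± 59.5 CPM in NT (SD, n = 4) and 463 ± 79.4 CPM over the guide libraries (SD, n = 8), and its change of −0.17 did not pass (edgeR adjusted p = 0.35) and was 0.23 per ERCC read (edgeR adjusted p = 0.19). Its lowest value was 287.5 CPM in Mycn-gRNA2 replicate 1. Per kilobase, Hk1 made up 5.47% ± 0.567 of the hexokinase pair in NT (SD, n = 4), 7.8% ± 2.31 under Mycn-gRNA2 and 8.05% ± 1.26 under Mycn-gRNA3. Gpi1, which turns glucose 6-phosphate into fructose 6-phosphate, stood at 434 ± 28.6 CPM in NT (SD, n = 4) and 445 ± 32.7 CPM with the guides (SD, n = 8), a change of 0.04 that did not pass (edgeR adjusted p = 0.689).

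Phosphofructokinase, the committed step, has liver, muscle and platelet forms. Of the 3 genes, 2 were called higher, where 14.9% of all genes were. Pfkl, the liver form, was at 76.34, 78.24, 61.67 and 51.99 CPM in NT, 47.92, 84.32, 95.85 and 103.5 CPM with Mycn-gRNA2, and 101.2, 105.3, 133.5 and 119.6 CPM with Mycn-gRNA3. Of the guide libraries, 7 exceeded all NT libraries and Mycn-gRNA2 replicate 1 lay below all of them. The rise was 0.54 (SE 0.174, edgeR adjusted p = 0.0325), and it was not called without replicate 3 or 4 of any group (edgeR adjusted p up to 0.114). Pfkm, the muscle form, was at 28.89, 30.19, 25.13 and 23.71 CPM in NT, 29.22, 33.07, 33.62 and 34.33 CPM with Mycn-gRNA2 and 40.2, 41.36, 37.72 and 36.38 CPM with Mycn-gRNA3. Its rise of 0.40 (SE 0.0771, edgeR adjusted p = 0.00188) stayed called with any 1 library left out. Pfkp, the platelet form, changed by 0.28 without passing (edgeR adjusted p = 0.0658), though 6 of the 8 guide libraries exceeded the NT range. Pfkl was the largest of the 3 per kilobase, at 55.1% ± 2.92 of their sum in NT (SD, n = 4), 54.9% ± 7.15 under Mycn-gRNA2 and 61% ± 3.65 under Mycn-gRNA3. Pfkfb3 and Pfkfb4 make and break down fructose 2,6-bisphosphate, the activator of phosphofructokinase. Both are known HIF targets. Neither was called relative to the transcriptome, at −0.04 (edgeR adjusted p = 0.782) and 0.05 (edgeR adjusted p = 0.855). Per ERCC read both were called higher, at 0.37 (edgeR adjusted p = 0.0317) and 0.45 (edgeR adjusted p = 0.0407), where 56.4% of all genes were.

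**Figure D2:**
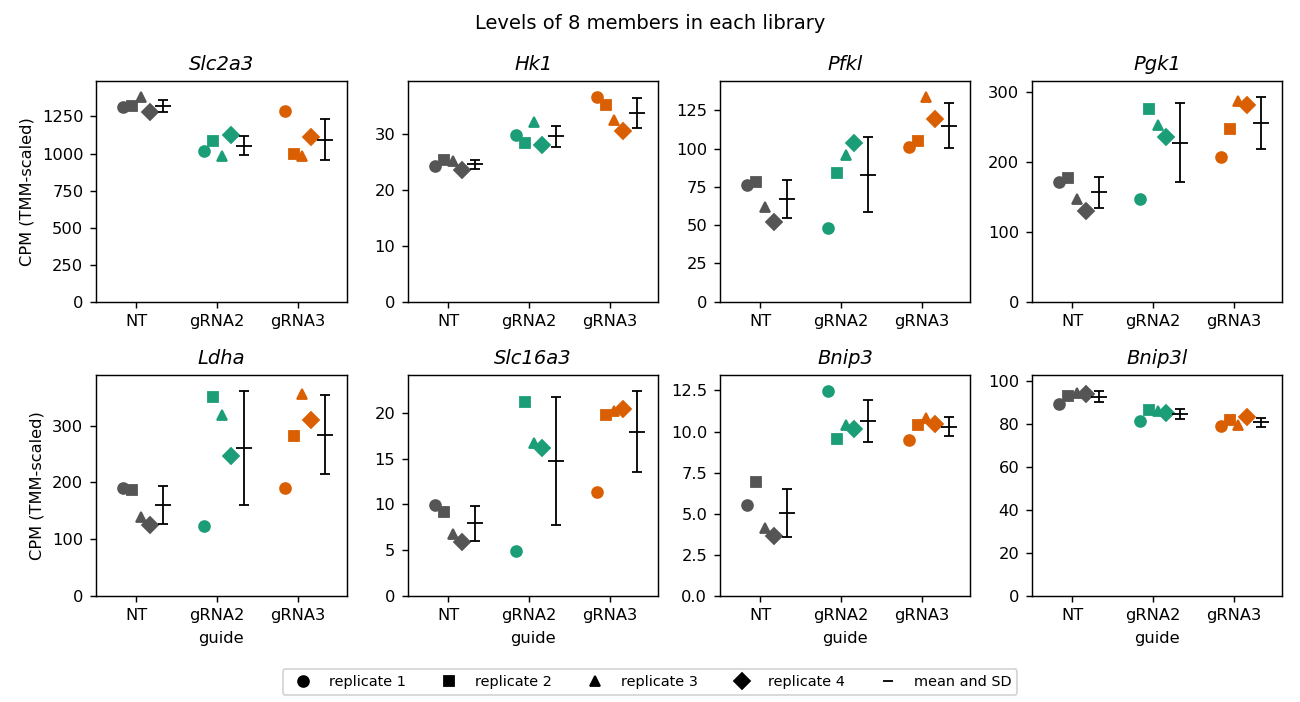
TMM-scaled CPM of 8 members in each library (symbols give the replicate number, colours the guide), with the group mean and SD of 4 libraries beside the points and axes from 0. Hk1 and Bnip3 lie higher in every guide library than in any NT library and Bnip3l lies lower, whereas Mycn-gRNA2 replicate 1 (circle) falls to or below the NT range for Pfkl, Pgk1, Ldha and Slc16a3.

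In the splitting and payoff steps, 4 of 9 genes were called higher, where 14.9% of all genes were. Aldolase cuts fructose 1,6-bisphosphate. Aldoa, its abundant form, stood at 405 ± 31.1 CPM in NT (SD, n = 4) and 477 ± 75.2 CPM with the guides (SD, n = 8), a change of 0.23 that did not pass (edgeR adjusted p = 0.121). Aldoc, the brain form, was at 1.851, 2.512, 1.742 and 1.144 CPM in NT, 2.435, 3.814, 2.923 and 3.172 CPM with Mycn-gRNA2 and 2.664, 3.79, 4.38 and 3.264 CPM with Mycn-gRNA3. All guide libraries but Mycn-gRNA2 replicate 1 exceeded all NT libraries. Its rise of 0.86 (SE 0.2, edgeR adjusted p = 0.0059) was the largest among the glycolytic enzymes, on 26 to 121 reads per library, and it made up 0.281% of the aldolase pair per kilobase in NT and 0.442% and 0.436% with the guides.

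Tpi1, which interconverts the triose phosphates, was at 73.9, 78.47, 53.91 and 52.7 CPM in NT, 53.7, 106.4, 95.18 and 86.18 CPM with Mycn-gRNA2 and 82.3, 99.89, 109 and 103.2 CPM with Mycn-gRNA3. The guide libraries exceeded NT in 7 of 8 cases. The rise was 0.50 (SE 0.162, edgeR adjusted p = 0.0333) and stayed called in 4 of 12 fits with 1 library left out, those without NT replicate 1 or 2, Mycn-gRNA2 replicate 1 or Mycn-gRNA3 replicate 1 (elsewhere adjusted p up to 0.118). Gapdh, the oxidising step and the most abundant member at 1177 CPM per kilobase in NT, changed by −0.09 (SE 0.0711, edgeR adjusted p = 0.398) relative to the transcriptome and by 0.31 per ERCC read (edgeR adjusted p = 0.0436). Its guide range, 1489 to 1818 CPM, overlapped the NT range of 1542 to 1935 CPM.

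Pgk1, the first ATP-yielding enzyme (chromosome X, 106187100 to 106203699), was at 172.1, 177.2, 147.2 and 130.5 CPM in NT, 146.8, 275.9, 253 and 235.7 CPM with Mycn-gRNA2 and 206.9, 247.1, 287.6 and 281.4 CPM with Mycn-gRNA3. Again 7 of 8 guide libraries lay above every NT library, and Mycn-gRNA2 replicate 1 lay within the NT range. The rise was 0.62 (SE 0.149, edgeR adjusted p = 0.00688), or 1.54-fold, and stayed called with any 1 library left out (0.54 to 0.70). Pgam1, which moves the phosphate group, changed by 0.25 and did not pass (edgeR adjusted p = 0.0766). Enolase makes phosphoenolpyruvate. Eno2, its neuronal form, changed by −0.02 (edgeR adjusted p = 0.945; 0.38 per ERCC read). Eno1 had only 3 to 19 reads per library, and its change of −0.04 (SE 0.471, and 0.33 per ERCC read) sets no useful limit. Of its 50-base words, 49.5% occur in transcripts of other genes. Whether the low count reflects its level or the way shared reads were counted was not tested.

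Pkm, pyruvate kinase and the most abundant called member, was at 1434, 1553, 1304 and 1309 CPM in NT, 1452, 1865, 1897 and 1842 CPM with Mycn-gRNA2 and 1630, 1823, 2188 and 2060 CPM with Mycn-gRNA3. Only Mycn-gRNA2 replicate 1 among the guide libraries fell within the NT range. The rise was 0.40 (SE 0.0928, edgeR adjusted p = 0.00616), 1.32-fold, and stayed called with any 1 library left out. Splice forms of Pkm were not separated. Processed copies complicate several of these counts: 68% of the 50-base words of Pgk1 transcripts also occur in transcripts of other genes, 58.4% for Gapdh, 49.5% for Eno1, 41.5% for Pgam1, 23.7% for Pkm and 21% for Ldhb, against 0% for Slc2a3, Hk1, Aldoc and Slc16a3. The sources used here do not give how reads matching several genes were counted, so the levels of the first 6 are uncertain.

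At the lactate end of the pathway all 3 genes were called higher with both guides together, where 14.9% of all genes were. Of these 3, none was called with Mycn-gRNA2 alone, and Ldhb was not with Mycn-gRNA3 alone. Slc16a3 had the largest rise of the 22 glycolytic members. Ldha, the lactate dehydrogenase subunit that favours lactate (chromosome 7, 46845804 to 46855627), was at 190.1, 186.2, 138.1 and 124.7 CPM in NT, 123.8, 350.2, 319.4 and 246.4 CPM with Mycn-gRNA2 and 189.8, 281.8, 355.6 and 309.8 CPM with Mycn-gRNA3. Replicate 1 of each guide lay within or below the NT range and the other 6 libraries lay above it. The rise was 0.77 (SE 0.244, edgeR adjusted p = 0.0327), or 1.7-fold. It was lost without NT replicate 3 or 4, Mycn-gRNA2 replicate 2 or 3, or Mycn-gRNA3 replicate 3 or 4 (edgeR adjusted p up to 0.102). Slc16a3 (MCT4, the lactate exporter of highly glycolytic cells, chromosome 11, 120948484 to 120959000) was at 9.977, 9.108, 6.729 and 5.894 CPM in NT, 4.87, 21.21, 16.75 and 16.13 CPM with Mycn-gRNA2 and 11.34, 19.75, 20.24 and 20.45 CPM with Mycn-gRNA3. Mycn-gRNA2 replicate 1 was the lowest of all 12 libraries and the other 7 guide libraries exceeded all NT libraries. Its rise was 1.04 (SE 0.309, edgeR adjusted p = 0.0238), or 2.05-fold, and was lost without NT replicate 3 or 4 (edgeR adjusted p up to 0.0789).

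Ldhb, the subunit that favours pyruvate, rose by 0.31 (SE 0.104, edgeR adjusted p = 0.0371). Here Mycn-gRNA2 replicate 1 was the highest library, at 260.6 CPM, where the other guide libraries were at 155.2 to 213.4 CPM and NT at 144.7 to 172.6 CPM. The call remained in 4 of 12 fits with 1 library left out, those without Mycn-gRNA2 replicate 1, 2 or 3 or Mycn-gRNA3 replicate 2 (elsewhere adjusted p up to 0.128). The share of Ldha in the pair per kilobase was 39.4% ± 6.42 for NT (SD, n = 4), 45.1% ± 15.4 under Mycn-gRNA2 and 48.1% ± 6.59 under Mycn-gRNA3, with ranges that overlapped.

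Among the HIF genes, the mitophagy receptor Bnip3 had the lowest p of all members. Bnip3 (chromosome 7, 138890836 to 138909506) was at 5.508, 6.909, 4.116 and 3.607 CPM in NT, 12.44, 9.535, 10.4 and 10.16 CPM with Mycn-gRNA2 and 9.485, 10.42, 10.82 and 10.45 CPM with Mycn-gRNA3. No guide library overlapped NT. The rise was 1.06 (SE 0.149, edgeR adjusted p = 0.000194), or 2.08-fold, and it held with any 1 library left out (0.93 to 1.25, edgeR adjusted p at most 0.00153). Its near relative Bnip3l, also a mitophagy receptor and HIF target, fell by 0.17 (SE 0.0451, edgeR adjusted p = 0.0145). It was at 89.34, 93.14, 94.6 and 94.09 CPM in NT, 81.27, 86.41, 85.99 and 84.93 CPM with Mycn-gRNA2 and 78.87, 81.96, 79.31 and 83.38 CPM with Mycn-gRNA3, again without overlap. The fall is relative to the transcriptome: per ERCC read Bnip3l was at 0.23 (edgeR adjusted p = 0.115), and without NT replicate 3 the relative call was lost (edgeR adjusted p = 0.051). Of the 50-base words of their transcripts, 20.7% (Bnip3) and 24.4% (Bnip3l) occur in transcripts of other genes.

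Egln1 and Egln3, the oxygen sensors that mark HIF alpha subunits for destruction, are themselves HIF targets. Egln3 was at 5.869, 6.685, 4.75 and 5.366 CPM in NT, 6.913, 8.879, 6.473 and 6.156 CPM with Mycn-gRNA2 and 6.458, 8.091, 9.557 and 11.26 CPM with Mycn-gRNA3. Of the 8 guide libraries, 5 exceeded the NT range. It rose by 0.48 (SE 0.154, edgeR adjusted p = 0.0308), a call lost on leaving out NT replicate 1, 3 or 4, or replicate 3 or 4 of Mycn-gRNA3 (edgeR adjusted p up to 0.113). Egln1 changed by 0.20 with both guides (edgeR adjusted p = 0.0716) and was called with Mycn-gRNA3 alone, at 0.26 (edgeR adjusted p = 0.0368). Hif1a, the alpha subunit itself, is controlled mainly at the protein level, and its RNA averaged 180.5 ± 6.38 CPM over the NT libraries (SD, n = 4), 179 ± 29.4 CPM for Mycn-gRNA2 and 153 ± 3.35 CPM for Mycn-gRNA3. The change of −0.12 did not pass (edgeR adjusted p = 0.257), and it was 0.27 per ERCC read (edgeR adjusted p = 0.0651). Mycn-gRNA2 replicate 1, at 221.4 CPM, was the only guide library above the NT range, and 6 lay below it. Without that replicate Hif1a was called lower, at −0.18 (edgeR adjusted p = 0.00379).

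The remaining HIF targets were not called with both guides relative to the transcriptome. Pdk1, the kinase that keeps pyruvate out of the mitochondria, changed by 0.11 (SE 0.0653, edgeR adjusted p = 0.246), and no guide library lay outside the NT range of 201.9 to 257.7 CPM. Vegfa, which drives blood vessel growth, changed by 0.22 (edgeR adjusted p = 0.202), and P4ha1, a collagen prolyl hydroxylase, by 0.23 (edgeR adjusted p = 0.161). Ankrd37 changed by 0.36 (SE 0.271, edgeR adjusted p = 0.342), with 6 guide libraries above every NT library and Mycn-gRNA2 replicate 1 the lowest of all at 0.6087 CPM. Ndufa4l2, a mitochondrial protein strongly induced by HIF in other cells, was near the floor with 0 to 31 reads per library, and its change of 0.50 (SE 0.612) did not pass (edgeR adjusted p = 0.578). Per ERCC read, Pdk1 (0.49), Vegfa (0.61), P4ha1 (0.63) and Ankrd37 (0.75) were called higher, beside 56.4% of all genes, and Ndufa4l2 was not called.

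Each guide was then set against the same 4 NT libraries, which both comparisons share. With Mycn-gRNA2, 5 of 22 glycolytic genes were called higher (Hk1, Pfkm, Aldoc, Pgk1 and Pkm) and 1 lower (Slc2a3), where 10.1% of all genes were called higher and 7.05% lower, and the median was 0.26. With Mycn-gRNA3, 9 were called higher (the same 5 with Pfkl, Tpi1, Ldha and Slc16a3) and Slc2a3 lower, against 14.8% and 12.2% of all genes, with a median of 0.31. The HIF genes gave 1 call with Mycn-gRNA2 (Bnip3, higher) and 4 with Mycn-gRNA3 (Bnip3, Egln1 and Egln3 higher, Bnip3l lower). Bnip3 rose by 1.08 (SE 0.167) and 1.03 (SE 0.165), Pgk1 by 0.54 (SE 0.168) and 0.71 (SE 0.168), and Slc2a3 fell by 0.33 (SE 0.083) and 0.27 (SE 0.0829) with Mycn-gRNA2 and Mycn-gRNA3 in turn. Slc2a3 was not called for Mycn-gRNA2 without its replicate 3, nor for Mycn-gRNA3 when NT replicate 2 or 3, or its own replicate 2, 3 or 4, was left out, and the 3 HIF genes higher with Mycn-gRNA3 became 1 (Bnip3) without its replicate 4. The Mycn-gRNA2 count of 5 turned on single libraries: without its replicate 1 it was 13, and without NT replicate 1, NT replicate 4 or Mycn-gRNA2 replicate 3 it was 0. Without Mycn-gRNA2 replicate 1, calls over all genes in this comparison also went from 1462 of 14497 to 2217 of 14631 higher. Counts over all genes in the fits that gave 0 are not given here.

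Set against each other directly, the guides gave no called member and no called gene (0% of tested genes higher and 0% lower), while 5 of 32 members and 1274 of 14497 genes had an unadjusted p under 0.05. DESeq2 called 1 gene and no member. The log2 difference of Mycn-gRNA3 from Mycn-gRNA2 for Pfkl was 0.47 (95% interval 0.09 to 0.85, edgeR adjusted p = 0.549), for Pfkm 0.26 (0.09 to 0.43, edgeR adjusted p = 0.549) and for Hk1 0.19 (0.04 to 0.33, edgeR adjusted p = 0.549). For Hif1a it was −0.23 (−0.40 to −0.05, edgeR adjusted p = 0.549), and for Bnip3 −0.05 (−0.36 to 0.26, edgeR adjusted p = 0.918). Ndufa4l2 had 1.75 (0.52 to 2.99, edgeR adjusted p = 0.549) on its few reads. The intervals of Ldha, from −0.40 to 0.66, and of Slc16a3, from −0.36 to 0.94, were wide enough to hold differences in either direction. None of these intervals accounts for replicate number, by which libraries of the guides correlated. With replicates 3 and 4 alone, Ndufa4l2 and Egln3 were called higher with Mycn-gRNA3 than with Mycn-gRNA2, among 4 genes higher and 6 lower overall. Over all 4 replicates neither a larger response to Mycn-gRNA3 nor an equal one was shown for any member.

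The size of the change depended on the replicate number. In replicates 1 and 2 alone no member was called by edgeR (151 genes higher and 27 lower overall), while 3 of 32 members and 2212 of 14496 genes had an unadjusted p under 0.05, with a glycolytic median of 0.13 and 16 of 22 above 0. In replicates 3 and 4 alone 13 glycolytic and 8 HIF genes were called higher (3324 genes higher and 3061 lower overall), with medians of 0.37 and 0.28. The rise of Pfkl was 0.10 in the first pair of replicates and 0.98 in the second, that of Ldha 0.33 and 1.22, that of Pgk1 0.33 and 0.93, that of Slc16a3 0.57 and 1.53, and that of Bnip3 0.76 and 1.43. Hk1 (0.39 and 0.34), Ldhb (0.36 and 0.27), Slc2a3 (−0.26 and −0.34) and Bnip3l (−0.15 and −0.18) were nearly alike in both. Part of the gap lay in the NT libraries: for Pfkl, Ldha, Pgk1, Slc16a3, Tpi1, Pkm and Bnip3, NT replicates 1 and 2 were both higher than NT replicates 3 and 4. The same order held for Pfkm, Aldoa, Aldoc, Pgam1, Pdk1, Egln3 and Ndufa4l2, and how common it is among other genes was not tested. Guide replicates contributed as well. Replicate 1 of Mycn-gRNA2 was the lowest of its group for 13 glycolytic and 6 HIF genes (37.5% of all genes), and replicate 1 of Mycn-gRNA3 for 14 and 7 (31.7% of all genes). Whether the gap between the replicate pairs differs from that of other genes was not tested, and the labels name no batch.

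**Figure D3:**
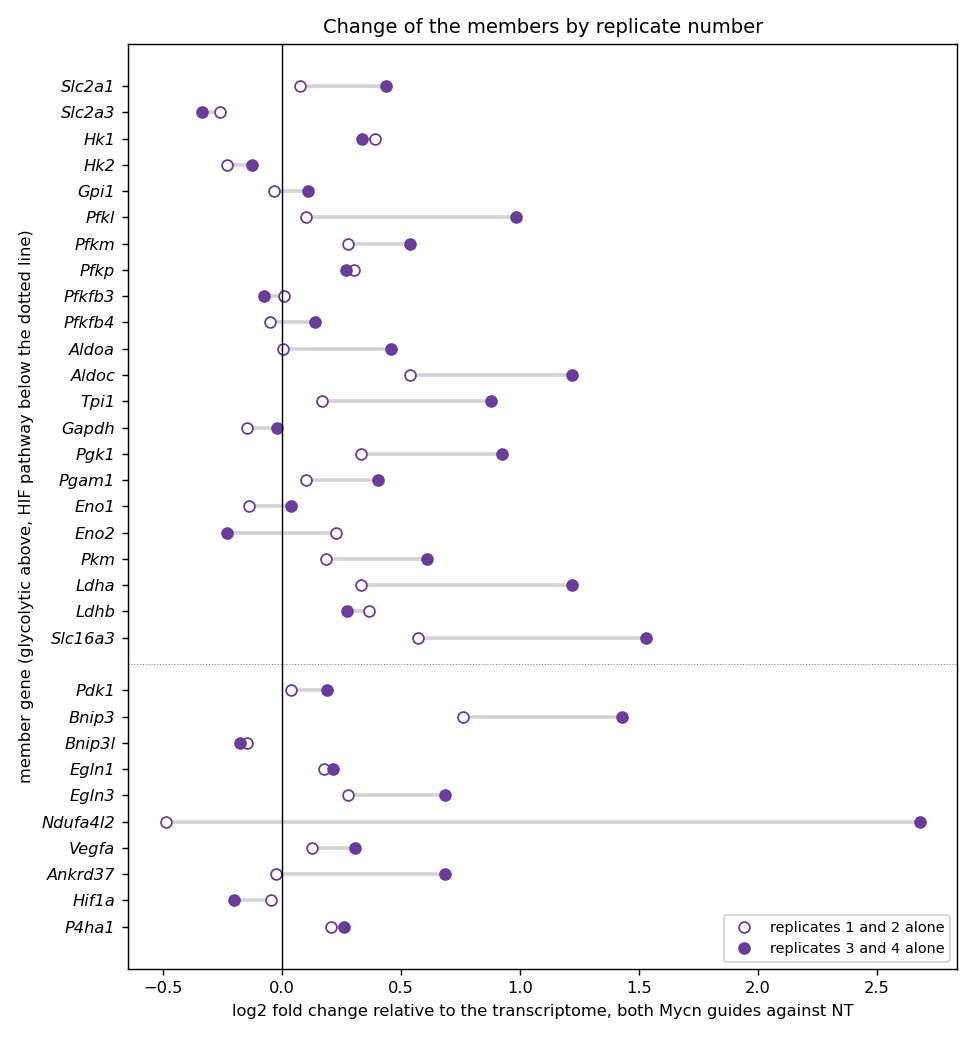
Log2 fold change of each member (rows) with both guides against NT, relative to the transcriptome, fitted in replicates 1 and 2 alone (open) and in replicates 3 and 4 alone (filled). Ldha, Slc16a3, Pfkl, Tpi1, Pgk1 and Aldoc lie much further right in replicates 3 and 4, whereas Hk1, Slc2a3, Ldhb and Bnip3l change little.

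Scaled to ERCC reads, the same libraries gave a different background. Endogenous reads per ERCC read were 61.3 to 72.05 in NT, 65.61 to 95.62 with Mycn-gRNA2 and 82.99 to 94.45 with Mycn-gRNA3, and the median gene rose by 0.39. On this scale 18 of 22 glycolytic and 7 of 10 HIF genes were called higher and none lower, where 56.4% of all genes were called higher and 0.931% lower. The medians were 0.67 and 0.62, above the 0.39 of all genes by amounts close to those of the relative scale. That closeness follows from the scaling, since both scales use the same counts with another size for each library. Slc2a3, Hk2, Eno1, Eno2, Bnip3l, Ndufa4l2 and Hif1a were not called. Bnip3 was at 0.333 ± 0.124 reads per 1000 ERCC reads in NT (SD, n = 4) and 0.903 ± 0.138 with the guides (SD, n = 8), Pgk1 at 10.3 ± 2.03 and 20.8 ± 4.50, and Slc16a3 at 0.519 ± 0.138 and 1.4 ± 0.487. Since the ERCC mix went into RNA already extracted, fewer cells, a lower yield and less RNA per cell in the NT samples cannot be told apart.

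**Figure D4:**
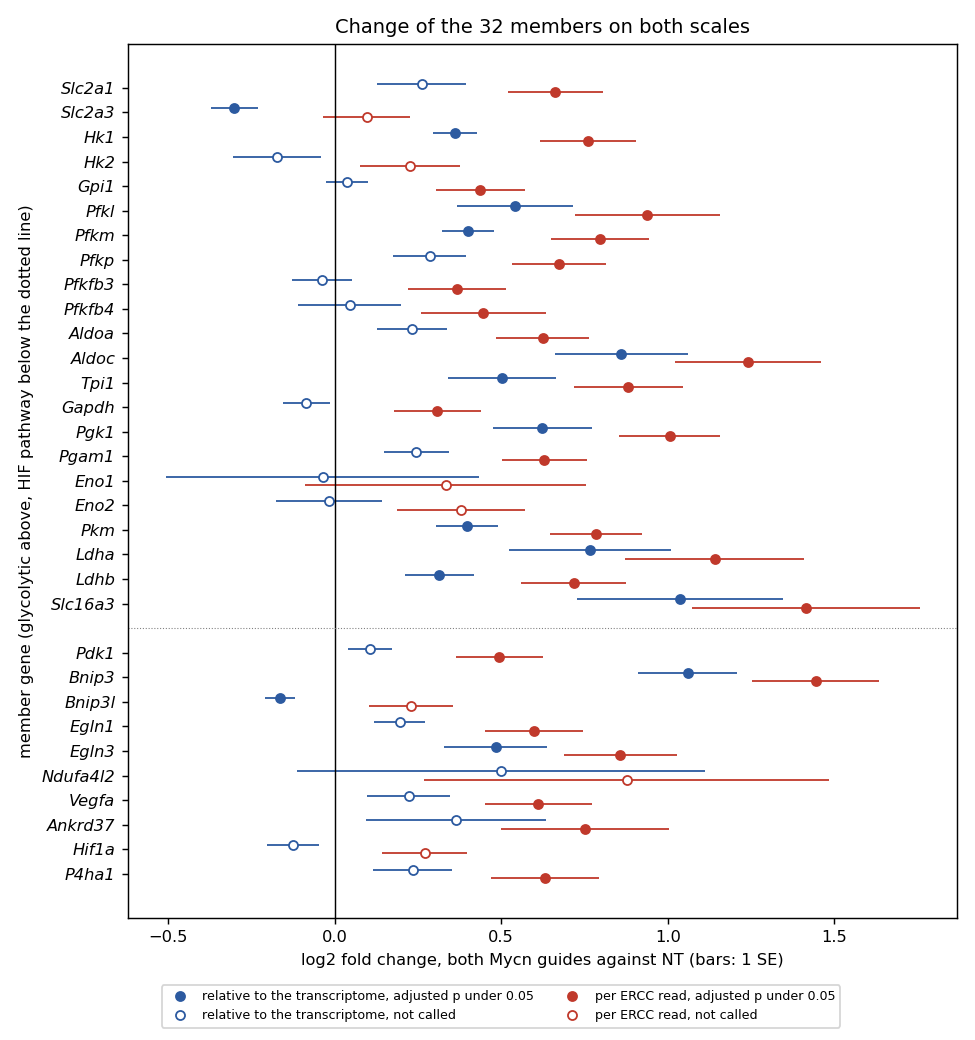
Log2 fold change of the 32 members with both guides against NT (points, bars 1 SE), relative to the transcriptome (blue) and per ERCC read (red), filled where the adjusted p is under 0.05. Every member lies further right per ERCC read, and Slc2a3, Hk2, Pfkfb3, Gapdh, Eno1, Eno2, Bnip3l and Hif1a lie left of 0 on the relative scale and right of it per ERCC read.

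Genes around the members were taken from wider lists of the same pathways, also chosen with earlier results of these data known. Of 16 tested other glycolysis genes, 3 were called higher and 1 lower with both guides relative to the transcriptome, with a median of 0.07, where 14.9% of all genes were called higher and 13% lower. Slc16a1 (MCT1, the other main lactate transporter and a known MYC target) went from 94.1 ± 9.23 CPM (SD, n = 4) to 168 ± 16.1 CPM (SD, n = 8), a rise of 0.83 (SE 0.0765, edgeR adjusted p = 7.09e-06) with all 8 guide libraries above NT. Bpgm, which makes 2,3-bisphosphoglycerate, rose by 0.38 (edgeR adjusted p = 0.00532) and Slc2a6, a lysosomal sugar transporter, by 0.98 from a low level of 0.239 CPM (edgeR adjusted p = 0.0126). Pgm2 as the count table names it, a phosphoglucomutase listed as Pgm1 in newer annotation, fell by 0.25 (edgeR adjusted p = 0.0185), though it was at 0.13 per ERCC read. In the pentose phosphate pathway, which branches off after hexokinase, 3 of 8 were called higher and 1 lower, beside the same shares of all genes, with a median of 0.14. Pgd, its NADPH-yielding dehydrogenase, rose by 0.54 (edgeR adjusted p = 0.00104), H6pd by 0.48 (edgeR adjusted p = 0.017) and Taldo1, transaldolase, by 0.37 (edgeR adjusted p = 0.0308). Rpe, an epimerase of the same pathway, fell by 0.40 (edgeR adjusted p = 0.000713) and was at −0.01 per ERCC read.

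The step from pyruvate into the mitochondria showed no call: 0 of 14 genes for pyruvate carriers, pyruvate dehydrogenase and its kinases and phosphatases passed the edgeR test in either direction, with a median of −0.07 and 3 at an unadjusted p under 0.05. Of 2 tested gluconeogenic genes neither was called, both at an unadjusted p under 0.05 with a median of 0.44. The HIF pathway's own regulators showed 0 of 15 higher and 3 lower, against the same 14.9% and 13% of all genes. These were Epas1, the alpha subunit HIF-2α (−0.34, edgeR adjusted p = 0.0188), Arnt, the shared beta subunit (−0.17, edgeR adjusted p = 0.0426), and Siah1a, a ubiquitin ligase acting on Egln enzymes (−0.27, edgeR adjusted p = 0.00254). Per ERCC read they were at 0.03, 0.23 and 0.13. Of 32 tested other HIF target genes, 7 were called higher and 2 lower, against 14.9% and 13% of all genes, with a median of 0.08. Car12, a carbonic anhydrase, rose by 1.21 (edgeR adjusted p = 0.00345) from a low level of 0.418 CPM in NT to 0.984 CPM with the guides. Plod2, a collagen lysyl hydroxylase, rose by 0.39 (edgeR adjusted p = 0.00398). The 2 that fell were Ppfia4, a liprin scaffold protein, by 0.42 (edgeR adjusted p = 0.00264), and Ccng2, a cyclin linked to growth arrest, by 0.43 (edgeR adjusted p = 0.0126). Ccng2 was named after its value was seen. Both were near 0 per ERCC read, at −0.02 and −0.04.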

How the data were processed

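RNA-seq reads were trimmed and counted per gene on mm10, and the submitters' processing notes name Trim Galore 0.4.0, featureCounts, Subread 1.5.0 and edgeR 3.32.1 without roles. The sources used here do not state the aligner, annotation or strand setting. The deposited table holds raw counts per gene and library made by the authors. A second deposited table holds log2 values of 12042 genes, which equal log2(count + 0.5) less a constant for each library that lies within 0.0015 of ERCC-based TMM factors. It was used as an alternative alone.

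The members and lists were chosen with earlier results of these data known. All 12 libraries, in 3 groups of 4, entered a single fit (edgeR 4.0.16 in R 4.3.3, robust quasi-likelihood, filterByExpr, TMM factors for the relative scale and ERCC totals for the per ERCC scale), with Benjamini-Hochberg adjustment over 14497 genes and calls at 0.05. The 95% intervals are 1.96 SE on each side. Alternatives used DESeq2 1.42.0, limma 3.58.1, other factors, no count filter, a replicate block, replicates 1 and 2 or 3 and 4 alone, the compared groups alone and each library left out. Replicates differed by more than sampling noise (chi-square per degree of freedom 8.68 to 73.3). Deviations of same-numbered libraries correlated above 0.1 in all 4 pairs of Mycn-gRNA2 with Mycn-gRNA3 (0.175 to 0.641). With NT, 4 of 8 pairs did (−0.0818 to 0.36). The main fit had a term for group alone, so its tests and intervals, also those between the guides, took no account of replicate number. Replicate number entered only as the block among the alternatives. All 32 members are named, and from the wider lists up to 4 called genes with the lowest adjusted p, or all where 5 or fewer were called. The values of 1 gene that this rule names are not reported here. Scripts were tested on simulated data. Sequences and 50-base words were handled in Python 3.11.15.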

Additional observations from a re-analysis of the deposited data

Results flagged for a closer look

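In groups of 4 libraries, 1 value was marked where its gap to the nearest other exceeded Dixon's 95% critical value as a share of the group's range. This held for 9 of 96 member groups (9.38%), where chance marks about 1 in 20, and the marked library was the lowest in each. Over all tested genes, the mark fell on Mycn-gRNA2 replicate 1 in 6.85% and on each other library in 0.269% to 2.27%. Whether members were marked more often than other genes was not tested. Replicate 1 of Mycn-gRNA2 had 331 CPM of the aldolase Aldoa, with the other 3 at 473 to 489 CPM, and 1450 CPM of the pyruvate kinase Pkm, with the others at 1840 to 1900 CPM. Replicate 1 of Mycn-gRNA3 had 385 CPM of the mutase Pgam1 (others 478 to 495 CPM) and 11.3 CPM of the lactate exporter Slc16a3 (others 19.8 to 20.4 CPM). Pfkfb3, the regulator of phosphofructokinase, was at 22.3 CPM in NT replicate 2 (others 25.6 to 26.1 CPM) and at 19.9 CPM in Mycn-gRNA3 replicate 2 (others 24.7 to 25.2 CPM). NT replicate 1 had 145 CPM of Ldhb (others 170 to 173 CPM) and 11.8 CPM of Vegfa (others 13.9 to 14.3 CPM), and NT replicate 4 had 1.01 CPM of Ankrd37 (others 1.31 to 1.35 CPM).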

How the results depend on the processing

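Over 19 alternatives, 608 values of single members gave 530 that kept their call or lack of one, 54 that lost and 24 that gained a call, and 0 called values that reversed. The 530 include 19 values of uncalled members that changed sign. Causes were not tested. With replicates 1 and 2 alone, 0 glycolytic and 0 HIF genes were called relative to the transcriptome in either direction with both guides or either guide, and per ERCC read 3 and 1 were higher. Of 14496 genes, 151 were higher relative to the transcriptome with both guides, 32 with Mycn-gRNA2 and 200 with Mycn-gRNA3. Lower were 27, 1 and 26 in turn. The count over all genes per ERCC read in this setting is not given here. With replicates 3 and 4 alone, glycolytic genes higher with Mycn-gRNA2 numbered 13, HIF genes higher numbered 8 with both guides, 2 with Mycn-gRNA2, 7 with Mycn-gRNA3 and 2 for Mycn-gRNA3 against Mycn-gRNA2, and HIF genes lower numbered 2 with both guides and 2 with Mycn-gRNA3. Of 14640 genes, 3324 were higher with both guides, 2587 with Mycn-gRNA2, 3139 with Mycn-gRNA3 and 4 for Mycn-gRNA3 against Mycn-gRNA2. Lower were 3061 with both guides and 2816 with Mycn-gRNA3. Without the count filter, 6 glycolytic genes were higher with both guides (2136 of all 21095 genes) and 3 with Mycn-gRNA2 (1373 of all genes). Library totals gave 2 with Mycn-gRNA2 (1325 of all 14497 genes). Fits of the compared groups alone gave 2 with Mycn-gRNA2, 14 with Mycn-gRNA3 and 2 HIF genes lower with Mycn-gRNA3. Counts over all genes in these fits are not given here. DESeq2 called 1 HIF gene lower with Mycn-gRNA2 (Bnip3l), where it called 1211 of 14497 genes lower.

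Leaving out 1 library at a time, glycolytic genes higher ranged from 5 to 14 with both guides and from 0 to 13 with Mycn-gRNA2, and glycolytic genes lower from 0 to 1 with either guide. HIF genes higher ranged from 1 to 5 with both guides, 1 to 2 with Mycn-gRNA2 and 1 to 3 with Mycn-gRNA3, and HIF genes lower from 0 to 2 with both guides and 1 to 2 with Mycn-gRNA3. The counts of 14 glycolytic and 5 HIF genes came without Mycn-gRNA2 replicate 1, where 3206 of 14631 genes were higher with both guides. The 13 with Mycn-gRNA2 came from the same fit, with 2217 genes higher. Counts over all genes in the other left-out fits are not given here. With the replicate block, 11 glycolytic and 3 HIF genes were higher with both guides (2325 of all 14497 genes). HIF genes higher with Mycn-gRNA2 then numbered 2 (1594 of all genes). Of 12 libraries, 4 correlated best with their own number in both other groups. Eno1 (3 to 19 reads per library) and Ndufa4l2 (0 to 31) were too thinly counted for a precise change. In the comparison of the guides with each other, the replicate block called 0 members and 0 genes by edgeR, as without it, with 5 members at an unadjusted p under 0.05.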

Other observations

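Eno1b, an entry of the count table whose transcript carries 48.4% of the 50-base words of Eno1, was named after its values were seen. It had 47 to 63 reads in each NT library and 126 to 479 reads in each guide library, or 2.38 ± 0.33 CPM (SD, n = 4) against 12 ± 3.62 CPM (SD, n = 8). All 8 guide libraries lay above NT, and the rise was 2.31 (SE 0.208, edgeR adjusted p = 6.18e-06). Eno1 itself had 3 to 19 reads per library. How reads shared by Eno1 and Eno1b were divided in counting was not tested, nor whether the rise belongs to Eno1b itself.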
